A study of Mus musculus with 20 samples.

Results

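A set of 10 genes of the cells that wrap brain blood vessels was followed in tissue collected after stroke, out of 46078 genes counted. They were chosen by name as markers of pericytes (Pdgfrb, Rgs5, Kcnj8, Abcc9) and of smooth muscle and its contractile skeleton (Acta2, Myh11, Tagln, Cald1, Des, Flnc). All 10 had counts in every library, from 14 (Des) to 2862 (Rgs5), and all 10 passed the low-count filter in every comparison.

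The mice were wild-type male C57BL/6J aged 18 months, and every one had undergone DH stroke, in which the distal middle cerebral artery is occluded and the animal is then kept in hypoxia. From week 1 after stroke they were injected subcutaneously with sterile PBS (vehicle) or with HPBCD (hydroxypropyl-β-cyclodextrin, a sugar ring that carries cholesterol) at 4 g/kg, 3 times a week for 6 weeks, and brains were taken at week 7. From each animal 2 regions were sequenced, the tissue bordering the infarct after the infarct itself had been cut away (peri-infarct) and the matching piece of the opposite hemisphere (contralateral). This gave 4 groups of 5 libraries from 10 animals, and no uninjured animal was among them. Treatment and region were taken from the sample titles, and each direction below holds for the libraries as they were titled. No gene or count in the files marks the treatment independently of these labels, and whether the treatment labels of the peri-infarct libraries are right is uncertain. If the titles of vehicle and HPBCD peri-infarct libraries had been exchanged, every treatment direction beside the infarct would turn, and the region differences within each treatment and the interaction would take other values. This was not tested, and levels of glial and neuron markers in these libraries are given with the other cell types below.

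Pericytes sit on capillaries and smooth muscle cells ring arterioles, and together these mural cells set vessel tone and support the blood-brain barrier. Endothelial cells release PDGF-B, which binds the receptor encoded by Pdgfrb and keeps pericytes on the vessel wall. Smooth muscle cells contract through actin and myosin, and their contractile genes are switched on by serum response factor (Srf) together with myocardin (Myocd) and its relatives. Few of these markers belong to mural cells alone: Pdgfrb and Cald1 are also used by fibroblasts, and Acta2 and Tagln by myofibroblasts. In whole tissue, more cells of a type and more RNA per cell cannot be told apart.

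The libraries held 14445021 to 22171627 gene counts. HPBCD contralateral replicate 4 stood apart, with 9.5% of its read pairs outside any gene and 8.03% ambiguous, against 4.39% to 5.86% and 3.94% to 4.16% in the others. On the first principal component (59.1% of the variance) vehicle peri-infarct libraries lay between -45.7 and 10.3, HPBCD peri-infarct libraries between -106.5 and -60.7, and contralateral libraries between 35.3 and 60.8. The tissue held brain markers, and the 8 neuron genes summed to 3153 to 12006 CPM (counts scaled to a common library total, with TMM factors) and the 8 astrocyte genes to 4832 to 11763 CPM. The 10 genes together made up 155.6 to 401.4 CPM per library.

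Promoters of 3 of the genes are shown because Acta2 and Flnc were among those that differed between groups and Rgs5, the most abundant, was not. Each window runs from 250 bases before to 50 after a RefSeq start site in GRCm38.p6, and windows of 7 of the 10 genes were read. No window was read for Pdgfrb, Myh11 or Tagln, which does not mean that these genes lack one. The motif counts below therefore leave out Pdgfrb and Tagln, which were among the called genes. Capitals mark 2 motifs, chosen after the tests had been seen. The first is CArG-like, CC and GG with 6 bases between them of which at least 5 are A or T, close to the CArG box that serum response factor binds. The second is CATTCC on either strand, the core bound by TEAD factors. The Acta2 window lies at chr19:34255324-34255623 (minus strand), the Flnc window at chr6:29432903-29433202 (plus strand) and the Rgs5 window at chr1:169655251-169655550 (plus strand).
Acta2: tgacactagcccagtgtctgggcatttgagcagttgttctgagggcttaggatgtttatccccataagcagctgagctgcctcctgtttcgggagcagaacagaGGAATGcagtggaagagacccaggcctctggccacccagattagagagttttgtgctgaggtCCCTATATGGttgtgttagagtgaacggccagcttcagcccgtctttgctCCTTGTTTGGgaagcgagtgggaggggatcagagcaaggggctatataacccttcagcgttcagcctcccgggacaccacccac
Flnc: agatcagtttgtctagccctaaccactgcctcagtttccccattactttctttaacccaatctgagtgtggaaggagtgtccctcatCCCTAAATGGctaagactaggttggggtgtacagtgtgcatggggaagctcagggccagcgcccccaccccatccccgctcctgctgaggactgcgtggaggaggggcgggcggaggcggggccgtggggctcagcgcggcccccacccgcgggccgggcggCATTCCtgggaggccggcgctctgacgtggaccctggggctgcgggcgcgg
Rgs5: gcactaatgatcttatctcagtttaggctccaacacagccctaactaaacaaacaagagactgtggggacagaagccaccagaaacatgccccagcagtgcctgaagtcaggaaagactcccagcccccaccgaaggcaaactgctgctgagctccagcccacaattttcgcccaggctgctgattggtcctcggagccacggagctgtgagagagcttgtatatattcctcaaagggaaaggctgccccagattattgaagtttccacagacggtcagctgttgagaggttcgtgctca
The Acta2 window held 2 CArG-like matches, CCCTATATGG from -84 to -75 and CCTTGTTTGG from -34 to -25 relative to the start site, and 1 CATTCC match on the other strand. The Flnc window held 1 CArG-like match, CCCTAAATGG from -163 to -154, and 1 CATTCC match across the start site. No match of either kind was in the Rgs5 window. Of the genes not shown, Cald1, which was called, held CATTCC but no CArG-like match. Abcc9, which was not called with all libraries, held CATTCC, and Kcnj8 and Des, also not called, held neither motif. A further Flnc window held CATTCC and no CArG-like match. Over the 9 windows of the 7 genes, 2 held a CArG-like match and 5 held CATTCC, against 9.98% and 14.7% of all 32851 mouse promoter windows. The 2 Flnc windows overlap and share 1 CATTCC match, so by gene 2 of the 7 held a CArG-like match and 4 held CATTCC. A strict CArG box, with A or T at all 6 inner bases, was in 0 of the 9 windows and in 1.63% of all promoters. None of the matches overlapped a match of the other motif, and a match is a run of letters only.

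Per kilobase of exon, Rgs5 was the highest of the 10 genes in each of the 4 groups, at 22.2 ± 3.77, 19.7 ± 3.55, 24.8 ± 4.1 and 21.9 ± 2.62 CPM per kb in vehicle contralateral, vehicle peri-infarct, HPBCD contralateral and HPBCD peri-infarct tissue (SD, n = 5 each). Its libraries did not overlap those of the next gene in any group. Rgs5 encodes a regulator that shortens G protein signalling in mural cells. Below it most neighbours in the order overlapped. In vehicle contralateral tissue Acta2, Pdgfrb and Tagln followed at 3.71 ± 2.13, 3.58 ± 0.405 and 2.9 ± 1.52 CPM per kb, and Des and Flnc were last at 0.601 ± 0.259 and 0.317 ± 0.0706 CPM per kb. The order changed most for Flnc, which was last in both contralateral groups, below Des without overlap in HPBCD contralateral libraries, and the sixth in both peri-infarct groups. In HPBCD peri-infarct tissue Flnc stood at 3.85 ± 0.629 CPM per kb, above Kcnj8 at 1.63 ± 0.225 CPM per kb with no overlap.

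**Figure D1:**
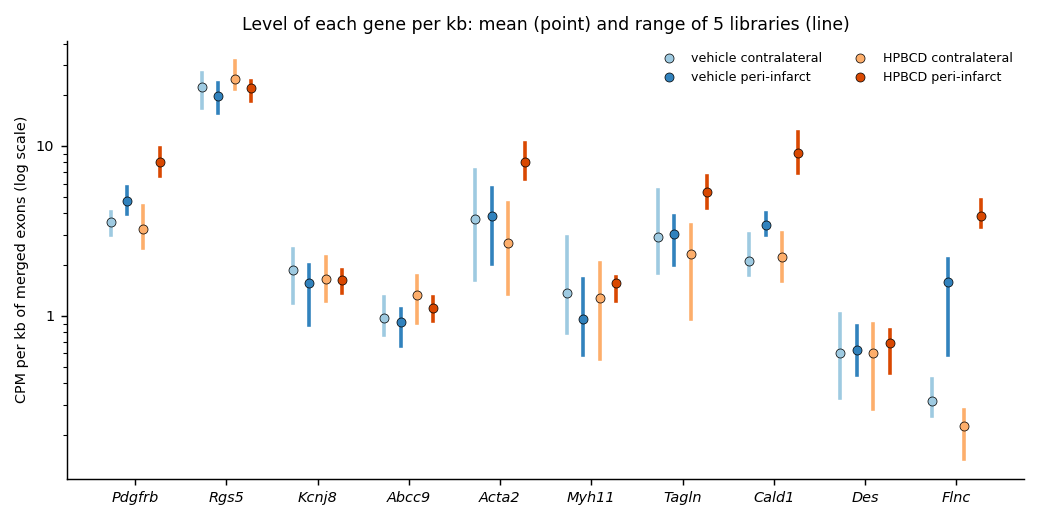
Level of each gene in CPM per kb of merged exons (log axis), by group; points are means and lines span the 5 libraries of a group. Rgs5 stands above the other genes in every group, and Flnc moves from the bottom in contralateral tissue to 3.85 CPM per kb in HPBCD peri-infarct tissue.

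Whether these genes differed beside the infarct was first asked in mice given vehicle. In them 3 of the 10 were higher in peri-infarct than in contralateral tissue: Flnc by 4.97-fold, Cald1 by 1.61-fold and Pdgfrb by 1.32-fold. The other 7 did not pass the test, and none passed in the lower direction. Over all genes tested, 10.5% were called higher and 20.2% were called in either direction. The median log2 difference of the 10 genes was 0.05, and that of all genes 0.01.

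The same question in mice labelled HPBCD gave 5 of 10 genes higher in peri-infarct tissue: Flnc by 17.1-fold, Cald1 by 4.08-fold, Acta2 by 2.93-fold, Pdgfrb by 2.45-fold and Tagln by 2.29-fold. All 5 were higher in 5 of 5 animals, with no overlap between the libraries of the 2 regions. The background was 30.3% called higher and 54.6% called in either direction, and 24.3% of genes were higher without overlap. Rgs5, Kcnj8, Abcc9, Myh11 and Des did not pass. The median log2 difference of the 10 genes was 0.74, and that of all genes 0.03.

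Peri-infarct tissue was then compared between treatments. The same 5 symbols were higher in the libraries labelled HPBCD than in vehicle, Cald1 by 2.63-fold, Flnc by 2.41-fold, Acta2 by 2.07-fold, Tagln by 1.77-fold and Pdgfrb by 1.68-fold, and the libraries of the 2 treatments did not overlap for any of them. Of all genes tested, 12.4% were called higher, 21.4% were called in either direction and 7.47% were higher without overlap. The median log2 difference was 0.73 for the 10 genes and 0.01 for all genes. These comparisons share libraries, so each is given by its own values.

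Contralateral tissue gave no call for the 10 genes by edgeR, and 0% of 15469 genes were called. Unadjusted p-values were under 0.05 for 2 of the 10, Abcc9 and Flnc, and for 7.91% of all genes. limma voom also called 0 of the 10, and DESeq2 called 0 of the 6 to which it gave an adjusted p-value and 56 genes in all. The median log2 difference was -0.12 for the 10 genes and -0.01 for all genes.

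The difference between regions was itself compared between treatments (interaction). It was larger in HPBCD for 3 of the 10 genes, by a log2 difference of 1.77 for Flnc, 1.33 for Cald1 and 0.89 for Pdgfrb. Over all genes, 5.03% were called in this direction and 9.41% in either. Acta2 and Tagln had values of 1.5 and 1.14 and adjusted p-values of 0.0753 and 0.0761 in edgeR. DESeq2 and limma voom each called 5 of the 10, with Acta2 (adjusted p = 0.035 and 0.0207) and Tagln (0.0414 and 0.0241) added to the 3. Over all genes DESeq2 called 2514 and limma voom 4110, where edgeR called 1577.

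**Figure D2:**
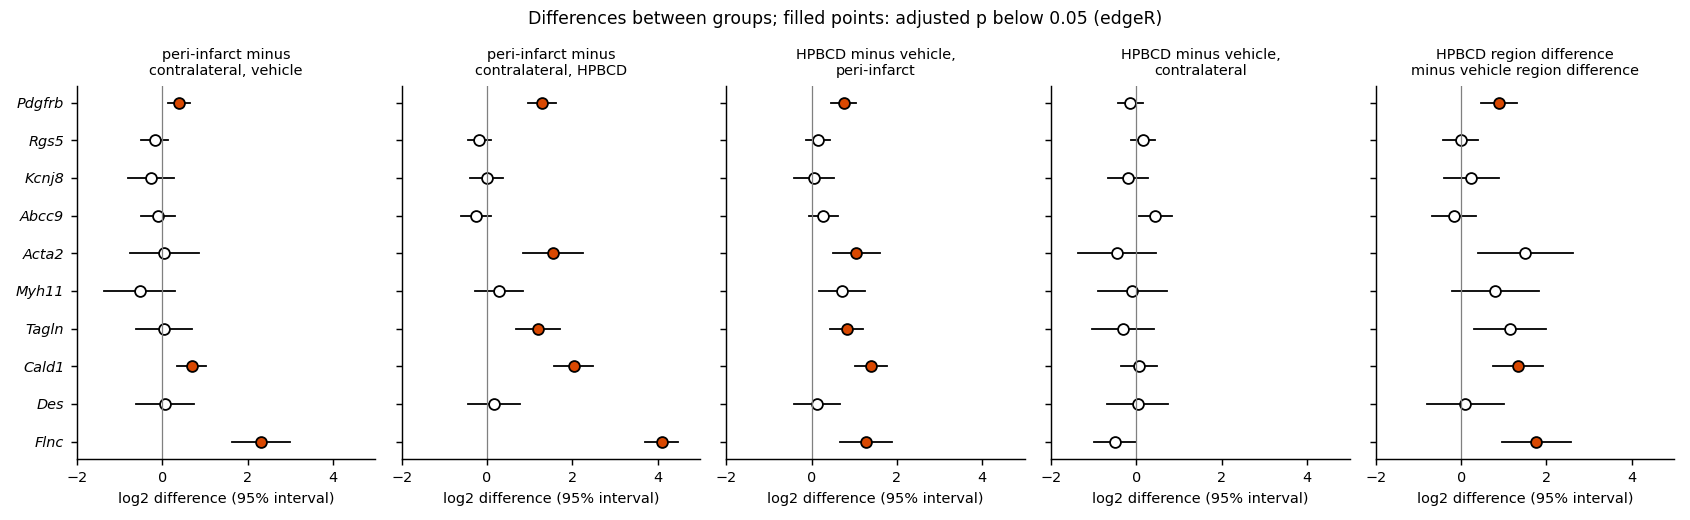
Log2 difference of each gene in 5 comparisons, with 95% intervals from edgeR; filled points have an adjusted p-value under 0.05. Pdgfrb, Acta2, Tagln, Cald1 and Flnc are filled in HPBCD peri-infarct against contralateral and against vehicle, and no point is filled in contralateral tissue.

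Pdgfrb encodes the receptor for PDGF-B and was the only gene of the 4 pericyte genes that edgeR called in any comparison with all libraries included. It was at 19.9, 22.3, 20.8, 18.6 and 16.4 CPM in vehicle contralateral replicates 1 to 5 and at 24.2, 21.9, 31.4, 28.3 and 24.3 CPM in the vehicle peri-infarct libraries of the same animals. HPBCD contralateral replicates 1 to 5 held 17.1, 24.3, 17.1, 13.7 and 16.9 CPM, and their peri-infarct counterparts 41.3, 37.3, 52.9, 51.7 and 36.2 CPM. Every HPBCD peri-infarct library was above all others, whereas in vehicle the regions overlapped and 4 of 5 animals were higher beside the infarct. Fitted with edgeR, the vehicle difference was 0.40 log2 (SE 0.12, adjusted p = 0.0326), the HPBCD difference 1.29 (SE 0.15, adjusted p = 1.79e-05) and the treatment difference in peri-infarct tissue 0.75 (SE 0.13, adjusted p = 0.0128). The interaction was 0.89 (SE 0.20, adjusted p = 0.0185). The vehicle call was lost without vehicle contralateral replicate 4 (adjusted p = 0.0519) or 5 (0.0721) and without vehicle peri-infarct replicate 3 (0.0576) or 4 (0.0805).

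Rgs5 did not follow Pdgfrb. It was at 110.4, 122, 99.5, 76.0 and 96.5 CPM in vehicle contralateral and at 74.6, 104, 106, 71.3 and 92.8 CPM in vehicle peri-infarct libraries. With HPBCD it was at 113.7, 144.3, 97.8, 104.4 and 102.8 CPM contralaterally and at 90.2, 106.5, 83.4, 109 and 108.6 CPM beside the infarct. The 4 groups overlapped throughout, and peri-infarct levels were lower in 4 of 5 vehicle animals and 3 of 5 HPBCD animals. The edgeR region differences were -0.18 (95% interval -0.50 to 0.13) in vehicle and -0.18 (-0.44 to 0.09) in HPBCD, and the treatment difference in peri-infarct tissue was 0.14 (-0.15 to 0.43).

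Kcnj8 and Abcc9 encode the pore and the regulatory subunit of the mural ATP-sensitive potassium channel, and are neighbours on chromosome 6 (GRCm38, Kcnj8 at chr6:142564837-142571614 and Abcc9 at chr6:142587862-142702315, both on the minus strand). Kcnj8 ranged from 3.04 to 6.34, 2.26 to 5.07, 3.1 to 5.63 and 3.45 to 4.75 CPM in vehicle contralateral, vehicle peri-infarct, HPBCD contralateral and HPBCD peri-infarct libraries. Abcc9 ranged from 6.47 to 10.8, 5.56 to 9.13, 7.55 to 14.4 and 7.75 to 10.9 CPM in the same order. All 4 groups overlapped for both genes. The HPBCD region difference was -0.01 (95% interval -0.39 to 0.38) for Kcnj8 and -0.26 (-0.61 to 0.09) for Abcc9 in edgeR. Without HPBCD contralateral replicate 5, the lowest of its group for Abcc9, that gene was called lower beside the infarct (-0.38, adjusted p = 0.0356).

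Set against Rgs5 within each library, Pdgfrb had a log2 ratio of -2.55 to -2.03 in vehicle contralateral tissue and of -2.25 to -1.33 in vehicle peri-infarct tissue. The ratio lay at -2.93 to -2.51 in HPBCD contralateral and at -1.58 to -0.66 in HPBCD peri-infarct libraries, with no overlap between these 2 groups. Pdgfrb against Abcc9 separated the HPBCD regions as well, at 0.20 to 1.16 and 1.73 to 2.77. These pairs were picked after their values had been seen and are a description.

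Among the contractile genes Acta2, which encodes smooth muscle α-actin, had 5.5, 15.9, 8.41, 7.34 and 3.59 CPM in vehicle contralateral libraries and 12.3, 9.28, 9.77, 4.43 and 6.41 CPM in vehicle peri-infarct libraries. HPBCD contralateral libraries had 10.2, 9.13, 2.96, 3.88 and 3.27 CPM, and the peri-infarct libraries of these animals 15.3, 14.1, 22.8, 14.1 and 21.5 CPM. The regions overlapped widely in vehicle and not at all in HPBCD. Vehicle contralateral replicate 2 alone reached the HPBCD peri-infarct range. The edgeR differences were 0.04 (SE 0.37, adjusted p = 0.95) between regions in vehicle, 1.55 (SE 0.33, adjusted p = 0.00142) in HPBCD and 1.05 (SE 0.26, adjusted p = 0.0214) between treatments in peri-infarct tissue. The last call was lost without HPBCD peri-infarct replicate 3 (0.94, adjusted p = 0.0597), and the interaction was called without HPBCD contralateral replicate 1 (1.79, adjusted p = 0.0499).

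Tagln encodes transgelin, an actin-bundling protein of smooth muscle. Its vehicle contralateral libraries held 4.07, 11, 4.8, 5.44 and 3.54 CPM and the vehicle peri-infarct libraries 6.68, 5.59, 7.68, 6.12 and 3.97 CPM. In HPBCD the contralateral values were 6.79, 4.59, 4.89, 1.9 and 4.79 CPM and the peri-infarct values 9.84, 8.62, 13.1, 10.4 and 11.3 CPM. HPBCD peri-infarct libraries were above every other library except vehicle contralateral replicate 2. The difference between HPBCD regions was 1.20 (SE 0.24, adjusted p = 0.00102) and that between treatments beside the infarct 0.82 (SE 0.18, adjusted p = 0.0157) in edgeR. The interaction was called without HPBCD peri-infarct replicate 2 (1.24, adjusted p = 0.0476) or vehicle peri-infarct replicate 3 (1.24, adjusted p = 0.0488). Tagln shares 1349 bases with genes on the opposite strand, of which Pcsk7 was at 12.4 to 19.1 CPM over all libraries. The strand setting of the counting was not given in the sources used here, so reads of the 2 genes may not have been kept apart.

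Myh11, the myosin heavy chain of smooth muscle and the most specific of its contractile genes, was not called by edgeR with all libraries and no replicate block. It ranged from 5.98 to 22.1 CPM in vehicle contralateral, 4.48 to 12.5 in vehicle peri-infarct, 4.26 to 15.5 in HPBCD contralateral and 9.33 to 12.8 CPM in HPBCD peri-infarct libraries. The groups overlapped in every comparison. Between treatments in peri-infarct tissue it differed by 0.71 (SE 0.25, 95% interval 0.16 to 1.25, adjusted p = 0.0609 in edgeR). DESeq2 (adjusted p = 0.0297), limma voom (0.00563) and edgeR without vehicle peri-infarct replicate 3 (0.0135) called it higher. So did edgeR with the replicate number as a block (adjusted p = 0.0181), but between treatments that number pairs no animals. The region difference was -0.53 (-1.37 to 0.31) in vehicle and 0.28 (-0.28 to 0.84) in HPBCD, and the interaction was 0.80 (-0.23 to 1.83, adjusted p = 0.29 in edgeR).

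The ratio of Acta2 to Myh11 within a library, again chosen after values were seen, was -0.89 to 0.49 log2 in vehicle contralateral and -0.35 to 0.86 in vehicle peri-infarct libraries. With HPBCD it was -1.40 to -0.13 contralaterally and 0.14 to 0.85 beside the infarct. The 2 HPBCD groups did not overlap.

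Cald1 encodes caldesmon, which controls actin and myosin in smooth muscle and, as another isoform, in non-muscle cells. Its levels were 20.8, 36.3, 21.9, 25.6 and 22.2 CPM in vehicle contralateral and 45.2, 36.5, 48.3, 40.04 and 36.2 CPM in vehicle peri-infarct libraries. HPBCD contralateral libraries had 20.4, 30.7, 37.1, 25.9 and 19.2 CPM, and peri-infarct libraries 85.5, 92.1, 138, 145.5 and 83.3 CPM. All 10 animals were higher beside the infarct, and every HPBCD peri-infarct library was above every library of the other groups. The region difference was 0.69 (SE 0.15, adjusted p = 0.0109) in vehicle and 2.03 (SE 0.22, adjusted p = 7.31e-06) in HPBCD, and the treatment difference beside the infarct was 1.39 (SE 0.17, adjusted p = 0.0101), all in edgeR. The interaction was 1.33 (SE 0.28, adjusted p = 0.0161). Counts were per gene, so the smooth muscle and non-muscle isoforms were not separated.

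Flnc, the muscle filamin that cross-links actin, showed the largest differences of the 10 genes between regions. It was at 2.75, 3.32, 3.97, 2.45 and 2.41 CPM in vehicle contralateral libraries and at 12.1, 5.54, 20.2, 16.9 and 19.96 CPM in vehicle peri-infarct libraries. In HPBCD it was at 2.25, 2.62, 2.55, 1.75 and 1.35 CPM contralaterally and at 38.8, 32.5, 33.1, 45.4 and 31.2 CPM beside the infarct. No contralateral library reached a peri-infarct library, and no vehicle peri-infarct library reached an HPBCD one. Flnc was the 1 gene of the 10 whose regions did not overlap in vehicle, where 6.72% of all genes were higher without overlap. In edgeR the region difference was 2.31 (SE 0.32, adjusted p = 0.00179) in vehicle and 4.09 (SE 0.18, adjusted p = 4.27e-08) in HPBCD. The treatment difference was 1.27 (SE 0.28, adjusted p = 0.0169) beside the infarct and -0.50 (95% interval -0.99 to -0.02, adjusted p = 0.614) contralaterally. The lowest vehicle peri-infarct value, 5.54 CPM, was in replicate 2, the library of that group nearest the contralateral libraries on the first principal component.

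Des encodes desmin, the intermediate filament of muscle cells and pericytes. It had the lowest mean of the 10 genes over all libraries (2.37 CPM) and ranged from 1.07 to 3.87 CPM over all groups, which overlapped in every comparison. Its edgeR difference was 0.16 (95% interval -0.45 to 0.77) between HPBCD regions and 0.12 (-0.43 to 0.67) between treatments beside the infarct. The ratio of Flnc to Des was -0.80 to 0.70 log2 in HPBCD contralateral and 3.41 to 4.16 in HPBCD peri-infarct libraries.

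**Figure D3:**
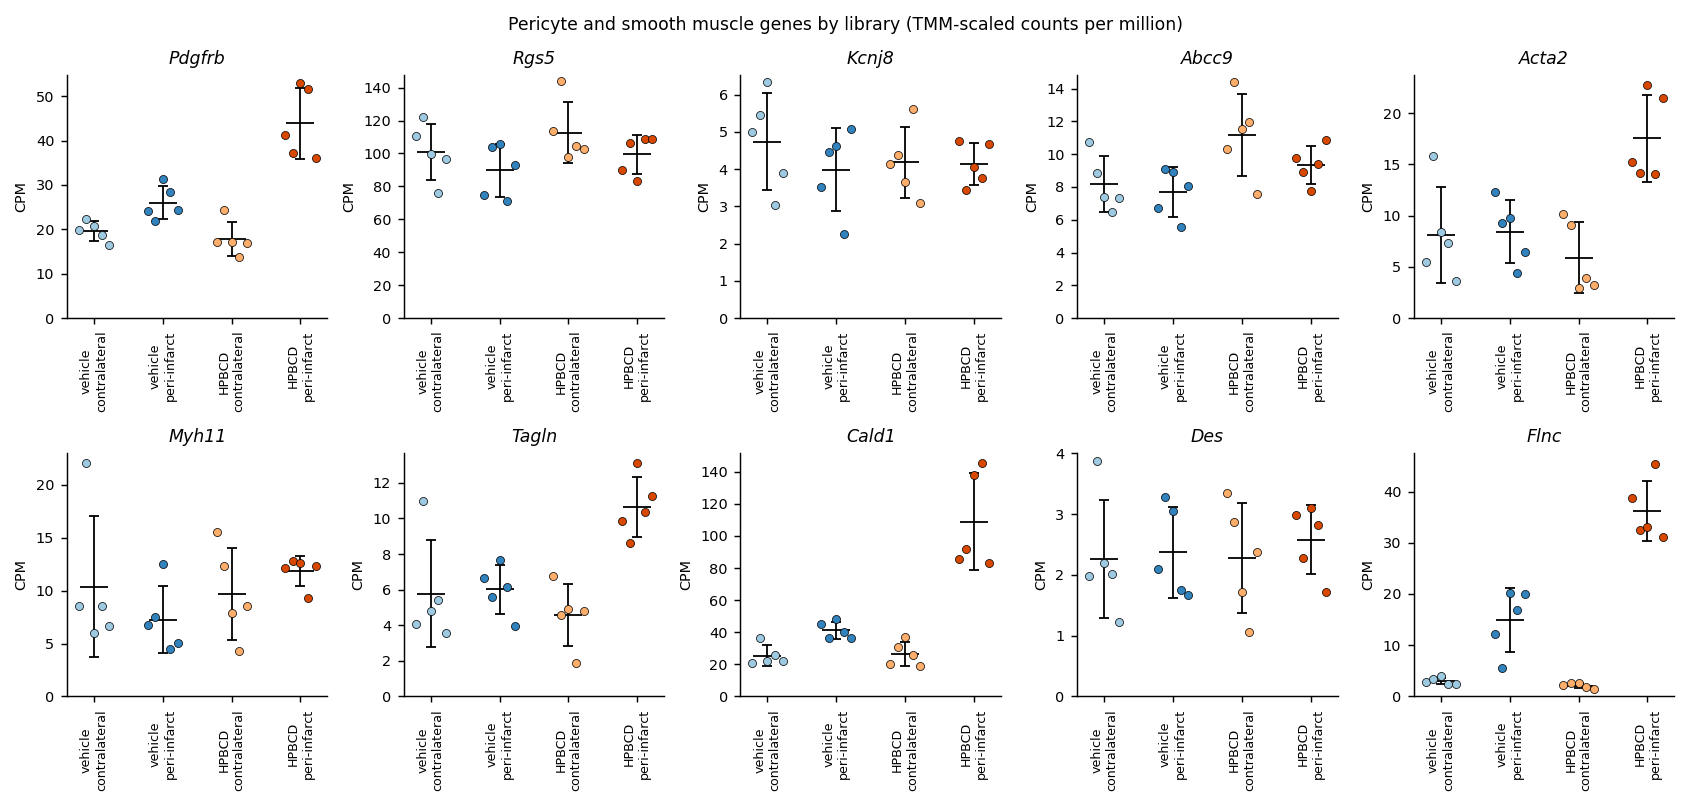
CPM of each gene in the 20 libraries (points), with the mean and SD of the 5 libraries of a group (bars). The HPBCD peri-infarct libraries of Pdgfrb, Cald1 and Flnc sit above all other libraries (36.2, 83.3 and 31.2 CPM at the lowest), while the groups of Rgs5, Kcnj8, Abcc9 and Des overlap.

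Subsets of the 10 genes varied together within groups. After each group mean was removed from log2 CPM, Pearson's r over the 20 libraries (10 animals) was 0.76 between Rgs5 and Abcc9, 0.69 between Kcnj8 and Abcc9 and 0.57 between Rgs5 and Kcnj8. Pdgfrb stood outside this trio, with r of 0.26, -0.03 and 0.07 with Rgs5, Kcnj8 and Abcc9, and had 0.58, 0.59 and 0.56 with Cald1, Des and Flnc. Among the contractile genes, Myh11 had r of 0.82 with Tagln, 0.81 with Des and 0.72 with Acta2. Spearman's rho for these pairs was 0.67, 0.75 and 0.74. Vehicle contralateral replicate 2, the highest of its group for Acta2, Myh11, Tagln and Des, is among the libraries. Flnc had r of 0.07 with both Acta2 and Myh11. These are descriptions over libraries that share animals and depth.

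**Figure D4:**
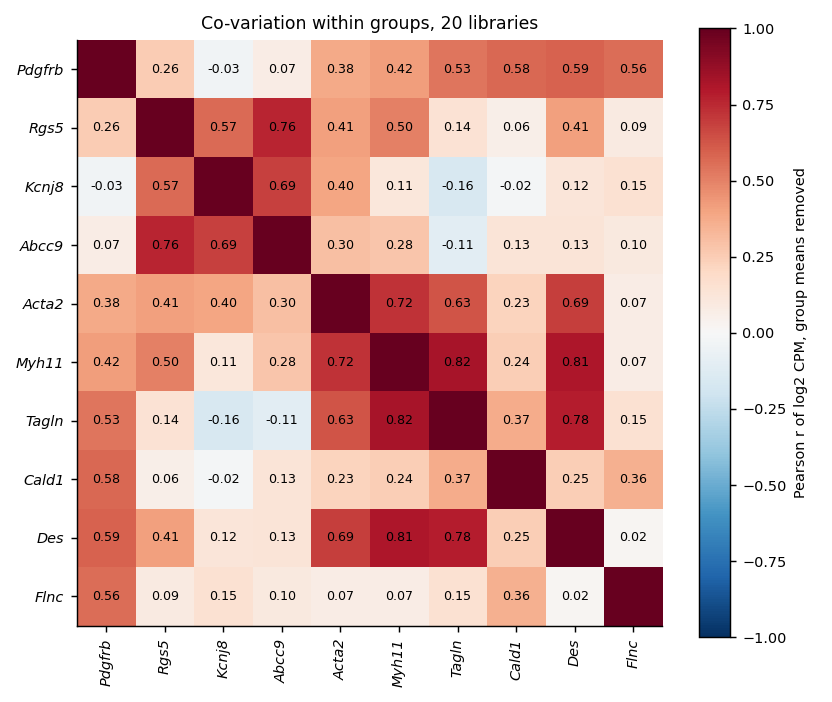
Pearson's r between each pair of the 10 genes over 20 libraries, from log2 CPM with group means removed. Rgs5, Kcnj8 and Abcc9 form 1 block (0.57 to 0.76), and Acta2, Myh11, Tagln and Des another (0.63 to 0.82).

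Over 14789 genes, those most like the mean of the 4 pericyte genes by this measure were Pecam1 (r = 0.79), Eng (0.74), Edn1 (0.74), Sox18 (0.74) and Adgrf5 (0.73). Pecam1, Eng and Edn1 are known from endothelial cells, and Sox18 and Adgrf5 were not classed by cell type here. Those most like the mean of the 6 contractile genes were Osgin1 (r = 0.88), Myl9 (0.84), Plk1 (0.75), Wtip (0.74) and Ltbp4 (0.74). Myl9 encodes the regulatory myosin light chain of smooth muscle. Osgin1 and Plk1 averaged 1.11 and 1.05 CPM.

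Other pericyte genes were read from a list of 14, all tested. In vehicle 1 was called, Cspg4 (NG2 proteoglycan, 0.52, SE 0.12, adjusted p = 0.0129 in edgeR), and 11 were called in HPBCD, all higher beside the infarct, against 10.5% and 30.3% of all genes called higher. DESeq2 and limma voom called 2 and 3 in vehicle, where limma voom called 5065 of 15801 genes in all. The 3 with the smallest adjusted p-values in HPBCD were Slc6a20a (2.64, SE 0.24), Tbx18 (2.77, SE 0.31) and Cd248 (2.12, SE 0.24). Tbx18 is a transcription factor of mural cells, and Tbx18, Slc6a20a and Cd248 are also found in fibroblasts of the meninges and vessels. Higd1b, Ndufa4l2 and Cox4i2, which like Rgs5 are used as pericyte markers, were not called, at -0.19, 0.30 and 0.28. Between treatments 6 of the 14 were higher beside the infarct, against 12.4% of all genes. The difference was positive for 10 of the 14, and not for Cspg4 (-0.005), Notch3 (-0.009), Higd1b (-0.04) and Cox4i2 (-0.36). Enpep (1.68, SE 0.21) and Vtn (1.05, SE 0.15) had the smallest adjusted p-values, Slc6a20a (1.93, SE 0.35) and Cd248 (1.66, SE 0.25) followed at the same adjusted p of 0.0128 in edgeR, and Anpep had the largest difference (2.17, SE 0.42). The list median was 0.39 in vehicle, 0.71 in HPBCD and 0.36 between treatments, and the interaction was called for 4 by edgeR, against 5.03% of all genes called in this direction, for 7 by DESeq2 and for 5 by limma voom.

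Of 14 other smooth muscle genes 11 to 13 were tested. In vehicle 0 of 11 were called between regions by edgeR, 0 had an unadjusted p under 0.05, and DESeq2 and limma voom called 0 and 1. Over all 15801 genes of that comparison edgeR called 20.2%, and limma voom called 5065. In HPBCD 7 of 12 were higher and 1, the tropomyosin gene Tpm1, was lower (-0.33, adjusted p = 0.00336), so 8 of 12 were called where 54.6% of all genes were. Those with the smallest adjusted p-values were Synpo2 (1.93, SE 0.15) and Nexn (2.69, SE 0.28), both actin-binding proteins, and the smoothelin gene Smtn (0.73, SE 0.14). Cnn1 and Mylk, encoding calponin and the myosin light chain kinase, were not called by edgeR, at 0.36 and -0.24, and limma voom called Mylk (adjusted p = 0.0186). Beside the infarct 4 of 12 were higher with HPBCD, namely Synpo2 (0.80, SE 0.15), Myl9 (0.61, SE 0.13), Smtn (0.70, SE 0.16) and Lmod1 (0.90), against 12.4% of all genes, and DESeq2 and limma voom called 5 and 7 of the list. In all, limma voom called 6012 of 16224 genes there.

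Among the ligands and the sister receptor of Pdgfrb, Pdgfb itself was not called in any comparison by edgeR, DESeq2 or limma voom, with region differences of 0.24 in vehicle (adjusted p = 0.0768 in edgeR) and 0.23 in HPBCD (0.108). Pdgfd was higher beside the infarct in HPBCD (1.95, SE 0.25, adjusted p = 3.57e-05) and between treatments (1.23, SE 0.27, adjusted p = 0.0164). Pdgfra, a marker of oligodendrocyte precursors and fibroblasts, was higher beside the infarct in vehicle (0.61, SE 0.11) and HPBCD (1.09, SE 0.13). Between vehicle regions Pdgfd had an adjusted p of 0.0553 in edgeR and was called higher by DESeq2 (0.0229) and limma voom (0.0266). Pdgfc was called by edgeR between HPBCD regions, where it was higher, and by limma voom also between vehicle regions (0.019, against 0.134 in edgeR). Pdgfa was not called by any of the 3 tools.

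The other ATP-sensitive channel pair, Kcnj11 and Abcc8 of neurons, fell in both treatments, by 0.56 and 0.82 in vehicle and by 1.28 and 1.76 on the log2 scale in HPBCD. Their libraries did not overlap between regions. In the higher direction 6.72% of all genes in vehicle and 24.3% in HPBCD were without overlap, and the share in the lower direction is not given here. Neuron markers moved with Kcnj11 and Abcc8, with 3 of 8 lower in vehicle and 8 of 8 in HPBCD, against 9.7% and 24.3% of all genes called lower.

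Among 8 regulators and partners of contractile genes, 7 were tested; 1 was higher beside the infarct in vehicle, 3 were higher and 2 lower in HPBCD, and 2 were higher and 1 lower with HPBCD than with vehicle. The shares of all genes called in either direction were 20.2%, 54.6% and 21.4% in these comparisons. Srf was not called by edgeR (0.25 in vehicle, adjusted p = 0.101, and 0.22 in HPBCD, 0.0625), limma voom called it higher in vehicle (adjusted p = 0.0222), and Myocd was too low to test. Mrtfb, a myocardin relative, was lower in HPBCD beside the infarct (-0.45, adjusted p = 0.00416) and lower than in vehicle (-0.50, adjusted p = 0.0148). Vcl and Cnn2, targets of this pathway, were higher in HPBCD by 1.49 and 1.75, and Fhl2 was lower (-0.78). In vehicle Vcl was at 9.96 CPM contralaterally and 17.5 CPM beside the infarct, and Cnn2 at 8.49 and 10.8 CPM. Fhl2 was at 43.7 and 33.8 CPM in vehicle, called by DESeq2 (adjusted p = 0.0433) and limma voom (0.0229) but not by edgeR (0.0748).

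Relatives of Flnc and Des in the cytoskeleton were read beside them. The filamin gene Flna (1.81, SE 0.16) and the intermediate filament genes Vim (4.32, SE 0.23), Nes (0.88) and Synm (0.59) were higher beside the infarct in HPBCD, and these 4 were also higher than in vehicle. In vehicle Vim (2.87, SE 0.37) and Flna (0.59, SE 0.15) were called higher, and Nes and Synm were not called, at -0.03 and 0.11. Of all genes, 30.3% were called higher between HPBCD regions, 10.5% between vehicle regions and 12.4% between treatments beside the infarct. Vim is used by reactive astrocytes and fibroblasts as well as mural cells. Of the other actin genes, the skeletal actin Acta1 was lower in HPBCD (-1.25, SE 0.22), and Actb was not called in any comparison by edgeR, DESeq2 or limma voom. Actg1 was not called by edgeR. Between vehicle regions it was at 143.4 to 181.8 CPM contralaterally and at 183.4 to 198.4 CPM beside the infarct, without overlap (0.19, adjusted p = 0.0715 in edgeR), and DESeq2 (0.041) and limma voom (0.0299) called it higher.

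Markers of several other cell types moved with the 5 genes. The 12 fibroblast and meninges genes summed to 80.2 to 257.7 CPM in vehicle contralateral, 127.5 to 541.8 in vehicle peri-infarct, 96.5 to 212 in HPBCD contralateral and 639.5 to 1677 CPM in HPBCD peri-infarct libraries. Between HPBCD regions 11 of 12 were called higher, among them Lum (4.05, SE 0.33) and Col3a1 (4.69, SE 0.43), and beside the infarct 10 of 12 were higher than in vehicle, against 30.3% and 12.4% of all genes. The 12 endothelial genes summed to 292.9 to 595.1 CPM over all libraries, and 3 rose (Cdh5, Itm2a, Abcb1a) and 2 fell (Flt1, Ly6c1) between HPBCD regions, so 5 of 12 were called where 54.6% of all genes were. Endothelial genes were called in 0 of 12 cases between vehicle regions by edgeR, with 0 at an unadjusted p under 0.05. DESeq2 called 0, and limma voom called 4 of the 12 and 5065 of 15801 genes in all. In that comparison edgeR called 20.2% of all genes. Beside the infarct edgeR called 3 of the 12 endothelial genes higher with HPBCD than with vehicle, against 12.4% of all genes. Between regions 5 of 8 astrocyte genes were called higher in either treatment, and 6 of 8 microglia and macrophage genes in vehicle and 8 of 8 in HPBCD, against 10.5% and 30.3% of all genes. Between HPBCD regions the astrocyte genes Aldoc (-0.22, adjusted p = 0.0652) and Slc1a2 (-0.21, adjusted p = 0.189) were not called by edgeR, DESeq2 called Aldoc lower (0.0073) and limma voom called Slc1a2 lower (0.0113). With HPBCD 6 of 8 neuron genes were lower beside the infarct than with vehicle, against 9% of all genes. In the same comparison edgeR called 2 of 8 astrocyte genes higher (Gja1 and S100b) and 1 of 8 microglia and macrophage genes (Mrc1), while Slc1a2 and Aldoc of astrocytes had differences of -0.22 and -0.14 and were not called. Gfap and Cd68, named after their values were seen, did not pass in edgeR. The astrocyte gene Gfap was at 3430 against 1669 CPM (1.03, adjusted p = 0.0552 in edgeR, 0.0133 in DESeq2 and 0.0154 in limma voom). Cd68 of microglia and macrophages was at 96.9 against 51.2 CPM (0.91, adjusted p = 0.0895 in edgeR, 0.0422 in DESeq2 and 0.0191 in limma voom). The 10 skeletal muscle genes summed to no more than 18.1 CPM in any library. The part of these cells in the differences of the 10 genes was not tested.

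Within groups, over the same 20 libraries, Cald1 had r of 0.60 and Tagln 0.56 with the fibroblast and meninges genes, Pdgfrb 0.40, Flnc 0.39 and Acta2 -0.01. With the other pericyte genes Cald1 had r of 0.70 and Tagln 0.59. Rgs5 had r of -0.38 with the fibroblast and meninges genes, 0.22 with the other pericyte genes and 0.73 with the endothelial genes. Flnc had r of 0.66 with the astrocyte genes and 0.54 with the other pericyte genes, an order that Spearman's rho turned (0.53 and 0.62). Pdgfrb had r of 0.81 with the other pericyte genes.

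**Figure D5:**
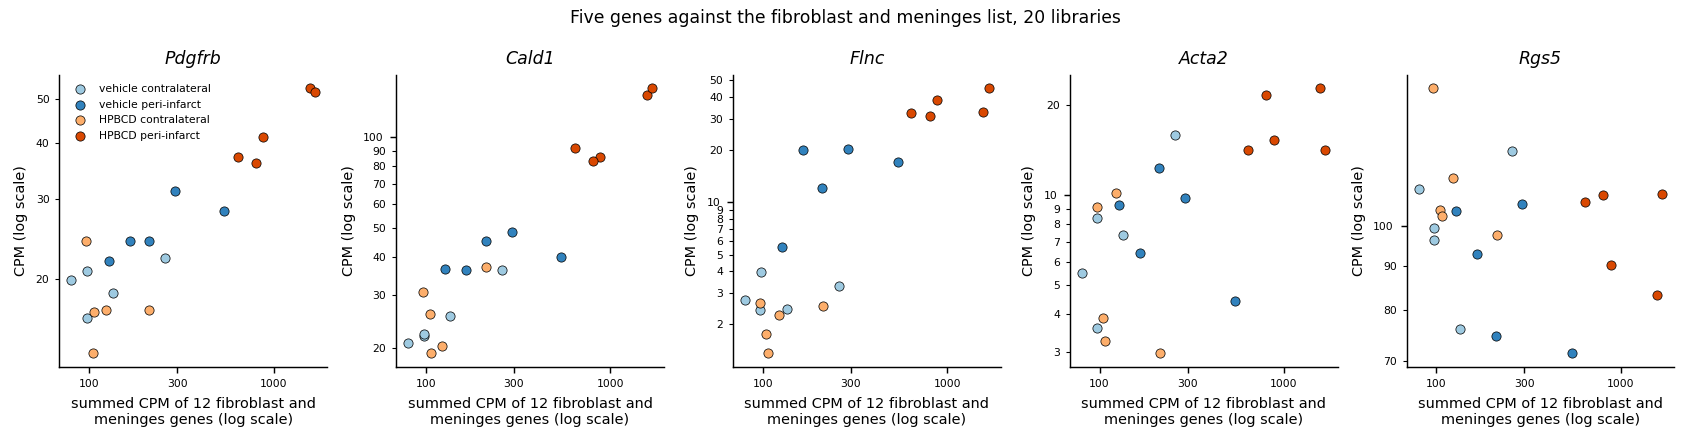
CPM of 5 genes, picked after their values were seen, against the summed CPM of 12 fibroblast and meninges genes in each of the 20 libraries, on log axes. HPBCD peri-infarct libraries lie at 639.5 CPM or more of the list and hold the highest Pdgfrb, Cald1 and Flnc, while Rgs5 has no such step.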

How the data were processed

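Polyadenylated RNA of 20 brain libraries was measured. The authors made stranded mRNA libraries, sequenced them in pairs (bcl2fastq 2.19), trimmed with Trimmomatic 0.32, aligned to GRCm38 with STAR 2.5.2b and counted with htseq-count. The deposited values are raw counts per gene, without normalization. The annotation release and strand option are not given in the sources used here. Symbols, positions and exon lengths came from GENCODE M21, which held 98.16% of the gene identifiers, and 5 summary lines per table were left out.

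The main test was edgeR 4.0.16 in R 4.3.3 (quasi-likelihood F test, TMM factors, filterByExpr), each pair of groups in its own fit and the interaction in all 20 libraries, with Benjamini-Hochberg adjustment over all genes and a threshold of 0.05. SE is the size of the log2 difference divided by the square root of F, and intervals are 95%. Alternatives were DESeq2 1.42.0, limma 3.58.1 voom with sample quality weights, RLE factors, no filter, at least 10 counts in every library, thinning to 14445021 counts, 1 fit of all groups, a replicate block and leaving out each library. On simulated data with 200 genes changed 2-fold, edgeR recovered 75.5% of them for the vehicle regions (15591 genes, 3.8% of calls false) and 54% for the interaction (16548 genes, 7.7% false).

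Regions with the same number within a treatment share an animal identifier in the names of the deposited tables, so the numbers pair them. Deviations of the 10 pairs from group means correlated at -0.11 to 0.301 (mean 0.088), and 4 were over 0.1. Animals of the 2 treatments are not the same, so there the number pairs nothing. A count of 3 corresponds to 0.135 to 0.208 CPM, and such limits cover counting error only.

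All 10 genes are named in every comparison. Of other lists, counts and up to 3 genes per comparison with the smallest adjusted p-values and at least 1 CPM are named by rule; others were named after their values were seen, as were the ratios and the promoter motifs. Part of the cytoskeletal list is not reported here. The genes and lists were chosen with earlier results of these data known.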

Additional observations from a re-analysis of the deposited data

Results flagged for a closer look

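Among 40 sets of 5 libraries (10 genes in 4 groups), 3 held a library far from the other 4 by Dixon's criterion, where chance gives about 2. Myh11 was at 22.1 CPM in vehicle contralateral replicate 2, against 5.98 to 8.59 CPM in the other 4. Tagln was at 11 CPM in the same library, against 3.54 to 5.44 CPM. That library also had the highest Acta2 (15.9 CPM), Cald1 (36.3 CPM) and Des (3.87 CPM) of its group, and the highest sums of endothelial (530.8 CPM) and of fibroblast and meninges genes (257.7 CPM) among contralateral libraries. Without it the count of called genes stayed at 3 of 10 between vehicle regions and 3 of 10 for the interaction, with 0 of 10 between treatments contralaterally. Myh11 in HPBCD peri-infarct replicate 4 was at 9.33 CPM, below 12.1 to 12.8 CPM in the others of that group.

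The difference between regions was itself different between treatments for Pdgfrb (0.89), Cald1 (1.33) and Flnc (1.77), in log2 units, by the interaction test of edgeR. HPBCD contralateral replicate 4, the library with the most ambiguous read pairs, was also left out: without it 3 of 10 genes passed for the interaction and 5 of 10 between HPBCD regions.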

How the results depend on the processing

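Over the alternatives, 986 values of the 10 genes were refitted, of which 925 kept both direction and side of the threshold, 5 lost a call, 12 gained one and 0 reversed as a called value. Another 44 values, of 13 of the 50 gene and comparison pairs, changed sign while uncalled in both fits. These were pairs whose difference was at most 0.32 in size, such as Acta2, Tagln and Des between vehicle regions and Rgs5 for the interaction, so their signs are not read. The count of called genes became 5 for the interaction with DESeq2 and 5 with limma voom, and the cause was not tested. Leaving out 1 library gave 2 to 3 called genes between vehicle regions, 5 to 6 between HPBCD regions, 4 to 6 between treatments beside the infarct, 0 contralaterally and 3 to 4 for the interaction. With the animal as a replicate block, 3 and 5 genes were called between regions and 3 for the interaction, the same symbols in each; between treatments, where the number is a name only, the block gave 6, with Myh11 added (0.78, adjusted p = 0.0181), and no other call of the 10 changed. Counts over all genes moved by more than 1.5 times from 3195 to 5065 (limma voom) and 2000 to 3920 (leaving out 1 library) between vehicle regions, from 3471 to 6012 and 823 to 5339 between treatments beside the infarct, and from 1577 to 2514 (DESeq2), 4110 and 529 to 3121 for the interaction. Contralaterally the 0 became 56 with DESeq2, 2 without a filter and 1 with the block. At 14 to 71 counts, Des had intervals wide enough to hold differences of about the size found for Pdgfrb in vehicle.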
